A study of Homo sapiens and Mus musculus with 12 samples.

Results

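The 41 genes described here are a set of G2 and mitosis genes, chosen by name from a list of transcripts that cells make in quantity as they prepare for and pass through division. They were chosen with earlier results of these data known. All 41 were found among the 15590 genes of a table of RKO cells, and 40 were found, under the same names in title case, among the 17383 genes of a table of mouse colon. Kif4a was not found under that name in the mouse table and is not analysed here. RKO is an established human colon cancer line. The tested RKO cells carried 1 stably expressed shRNA against ZNF280C, a zinc finger protein gene, behind a tetracycline-inducible promoter, and were given 1 ug/ml doxycycline for 72 h (3 libraries). The same shRNA-carrying cells without doxycycline were the controls (3 libraries). The colon libraries came from C57BL/6J mice of 12 weeks, 3 Zfp280c knock-out and 3 wild-type. Cells with doxycycline but without this shRNA are not analysed here, so an effect of the drug and an effect of the knockdown cannot be told apart. Nothing in the labels says that the RKO libraries came from separate cultures, so the p-values measure the spread between these libraries, which may be technical. The RKO file is named as already adjusted for batch. The test made no allowance for that step, so the RKO p-values may be too small.

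Most of these genes are switched on together in G2. In G1 they are held down by the DREAM complex, and later in the cycle the MuvB core of that complex joins B-MYB and FOXM1 to activate them. Their promoters are known for a short element called CHR, most often TTTGAA, and for CCAAT boxes bound by NF-Y. Their products build the spindle, attach chromosomes to it, time the onset of anaphase and cut the cell apart. In colon the RNA of most of them is therefore expected mainly from dividing cells, chiefly at the bottom of the crypts. Which cells it came from was not tested here.

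Promoter windows were available for 35 of the 41 genes in RefSeq (GRCh38.p14), 42 windows in all, each of 300 bases from 250 before to 50 after the annotated start. FOXM1, TTK, AURKA, TPX2, BIRC5 and UBE2C had no window. TTTGAA, read on either strand, occurred in 30 of the 42 windows (71.4%), against 15.2% of all 35116 windows and 9.93% of the 13203 windows of the other genes measured in RKO cells. CCAAT on either strand occurred in 78.6% of the windows of the set, against 34.6% of all windows. At least 2 CCAAT letters together with TTTGAA occurred in 38.1%, against 1.78%. The variants TTTAAA and TTCGAA occurred in 35.7% and 7.14%, against 12.2% and 1.45%. These are matches of letters, not evidence of binding. Of the 5 genes that fell in RKO cells and had a window, 4 are printed here, with CCNB2, whose window holds TTTGAA close to the start and 4 CCAAT boxes and which did not pass the test. Each line gives the 250 bases before the start, 5′ to 3′ on the gene's strand, with matches to the motifs named above, on either strand, in capitals. A match to TTTGAA on the other strand reads TTCAAA in these lines. Boxes of the CCAAT type on the other strand read ATTGG.
CCNA2, minus strand, chr4:121823884-121824133: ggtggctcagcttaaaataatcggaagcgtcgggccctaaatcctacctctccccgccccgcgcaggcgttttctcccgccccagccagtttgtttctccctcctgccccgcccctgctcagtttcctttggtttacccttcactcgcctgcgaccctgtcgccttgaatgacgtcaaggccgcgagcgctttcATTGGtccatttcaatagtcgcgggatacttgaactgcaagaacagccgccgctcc
MZT1, minus strand, chr13:72727630-72727879: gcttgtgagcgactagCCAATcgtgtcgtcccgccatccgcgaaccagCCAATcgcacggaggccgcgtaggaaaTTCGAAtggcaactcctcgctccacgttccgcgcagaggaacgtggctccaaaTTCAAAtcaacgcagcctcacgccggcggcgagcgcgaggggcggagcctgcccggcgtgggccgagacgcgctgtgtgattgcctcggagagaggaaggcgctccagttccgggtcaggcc
PTTG1, plus strand, the first of 2 windows, chr5:160421605-160421854: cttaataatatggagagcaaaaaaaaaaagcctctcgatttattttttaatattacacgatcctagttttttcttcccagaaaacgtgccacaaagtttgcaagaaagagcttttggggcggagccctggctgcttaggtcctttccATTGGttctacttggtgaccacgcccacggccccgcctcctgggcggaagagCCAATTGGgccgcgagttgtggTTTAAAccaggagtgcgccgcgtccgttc
ANLN, plus strand, chr7:36389612-36389861: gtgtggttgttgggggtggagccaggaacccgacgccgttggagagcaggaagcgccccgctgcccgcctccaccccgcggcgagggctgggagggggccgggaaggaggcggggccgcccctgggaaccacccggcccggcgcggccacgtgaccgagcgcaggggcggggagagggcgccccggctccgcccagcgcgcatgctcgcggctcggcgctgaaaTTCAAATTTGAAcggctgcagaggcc
CCNB2, plus strand, chr15:59104896-59105145: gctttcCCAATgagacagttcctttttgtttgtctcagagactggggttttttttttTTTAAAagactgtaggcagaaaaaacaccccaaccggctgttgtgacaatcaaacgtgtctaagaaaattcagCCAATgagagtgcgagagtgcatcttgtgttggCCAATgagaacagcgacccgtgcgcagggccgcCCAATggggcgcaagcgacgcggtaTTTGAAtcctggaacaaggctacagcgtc

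CCNB2 has its TTTGAA at bases -29 to -24. ANLN has TTTGAA on both strands next to each other, at -26 to -21 and -20 to -15, and no CCAAT in the window. MZT1 has its TTTGAA letters farther out, at -122 to -117, with 2 CCAAT boxes beyond them. NDC80, whose sequence is not printed, has TTTGAA letters across its start, from base -3 to base 3, and TTCGAA right after them. PTTG1 has TTTAAA in place of TTTGAA, at -29 to -24, with a CCAAT and an ATTGG that overlap by 2 letters, and CCNA2 has a single ATTGG. Within the set, the median log2 fold change in RKO cells was -0.17 in the 27 members whose windows hold TTTGAA and -0.17 in the 8 whose windows do not. Among the genes outside the set, the medians were -0.04 for 1177 genes with TTTGAA and -0.01 for 7866 without, which is a description and not a test.

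**Figure D1:**
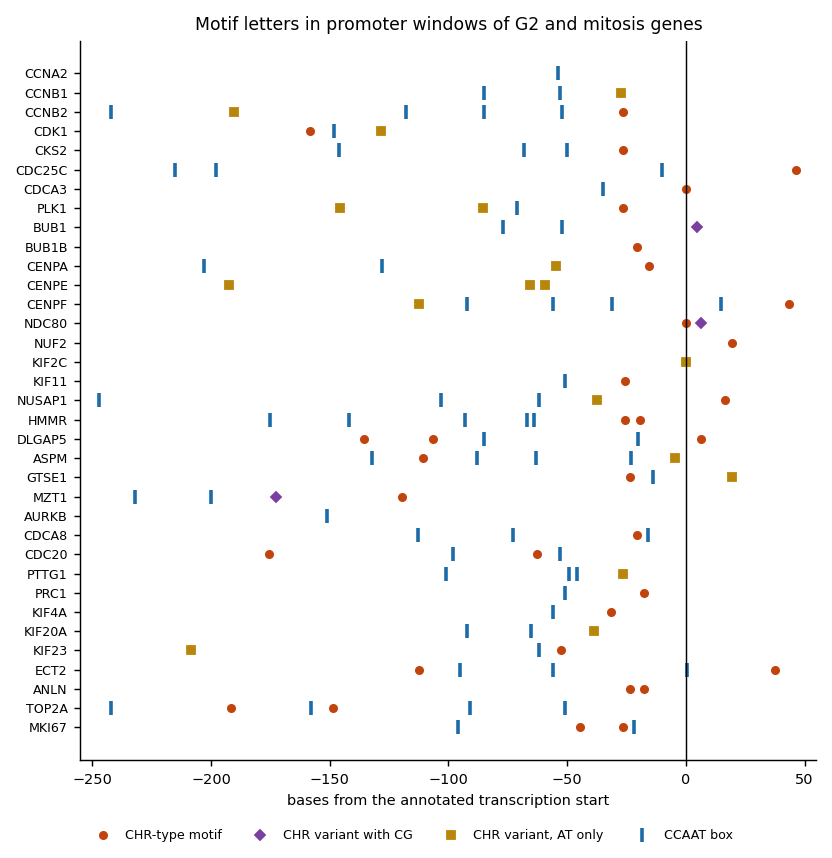
Positions of motif letters in the promoter windows of 35 G2 and mitosis genes (first window of each gene). The x axis is the distance in bases from the annotated start, and each symbol marks 1 match on either strand: red circles TTTGAA (CHR-type), purple diamonds TTCGAA, yellow squares TTTAAA and blue bars CCAAT. Over all 42 windows, 71.4% hold TTTGAA and 78.6% hold CCAAT.

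Values in the RKO table are called signal here. Their file is named as FPKM after batch adjustment, but their sums are far above those of FPKM, and whether they were divided by gene length is not settled here. They are therefore compared only between libraries, not between genes. Library sums ran between 9050161 and 9195211, and the read depth is unknown. ZNF280C itself had 123, 99.7 and 79.1 signal with doxycycline, against 193, 172 and 227 without it, 51.0% of the untreated mean (log2 fold change -0.98 ± 0.15 SE, adjusted p = 0.0276, limma; exact two-sided permutation p = 0.1, the smallest that 3 against 3 allows). That call ended in each fit that left out 1 library other than doxycycline 1 (adjusted p = 0.0294 to 0.0922 over the 6 fits). Some libraries of opposite groups share values to the last digit: 310 genes in doxycycline 2 and untreated 2, and 526 in doxycycline 3 and untreated 1, against 0 in all other RKO pairs. Of the epithelial markers, 4 were measured (EPCAM, KRT8, KRT18 and VIL1). Their summed signal was 1811 to 1880 with doxycycline and 1749 to 1804 without. KRT8 was higher with doxycycline, with groups apart, but did not pass (0.23 ± 0.05, adjusted p = 0.0523, limma). The groups overlapped in EPCAM (0.025), KRT18 (-0.063) and VIL1 (-0.086).

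With doxycycline the log2 fold change was negative in all 41 genes, against 55.1% of all genes tested. The changes were small, from -0.43 in MZT1 to -0.06 in CKS2, with a median of -0.17, which is 89.1% of the untreated level. The median over all 15590 genes was -0.01. Those that passed the test were MZT1, TPX2, CCNA2, PTTG1, NDC80, BIRC5 and ANLN, 7 of 41 (17.1%), against 0.757% of all genes called lower (an adjusted p under 0.05 over all genes in limma, on log2(signal + 1)). None of the 41 was called higher, against 0.385% of all genes. In 29 of the 41 (70.7%) every doxycycline library lay below every untreated library, against 13.3% of all genes. Because the set was chosen with earlier results of these data known, these shares are a description and not a test of the set. The 7 called genes came from 6 of the 7 role groups, and the group medians lay close together, between -0.18 for the spindle genes and -0.13 for the anaphase genes.

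These calls rested on all 6 libraries. TPX2 and MZT1 were the 2 members still called without doxycycline 1, and also without doxycycline 2, and 0 members were called without doxycycline 3, untreated 1, untreated 2 or untreated 3. Few genes of any kind were called lower in these fits: 15 and 13 of all 15590 without doxycycline 1 and 2, and 1, 2, 1 and 1 without doxycycline 3, untreated 1, untreated 2 and untreated 3. With a block for the libraries that share equal values, in which doxycycline 1 and untreated 3 were paired as the ones left over, 0 members and 0 of all genes passed, while 31 members and 1670 of all genes had an unadjusted p under 0.05. The members are poorer in G and C than other genes (median transcript GC 43.2%, against 48.3% over all genes, and 31.97% in MZT1, the lowest of the set). With each library's trend on GC content removed, their median was -0.16 and 8 were called, against 0.762% of all genes called lower in that fit: MZT1, TPX2, CCNA2, BIRC5, PTTG1, FOXM1, KIF2C and AURKB. NDC80 (-0.30, adjusted p = 0.0597) and ANLN (-0.20, adjusted p = 0.0827) were not. On the same 13118 genes with the trend kept, 9 members were called, among them NDC80, ANLN, FOXM1 and TOP2A. That fit called 141 of all genes lower, against 100 with the trend removed. The unadjusted p was under 0.05 in 33 members with the trend kept and in 27 with it removed.

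**Figure D2:**
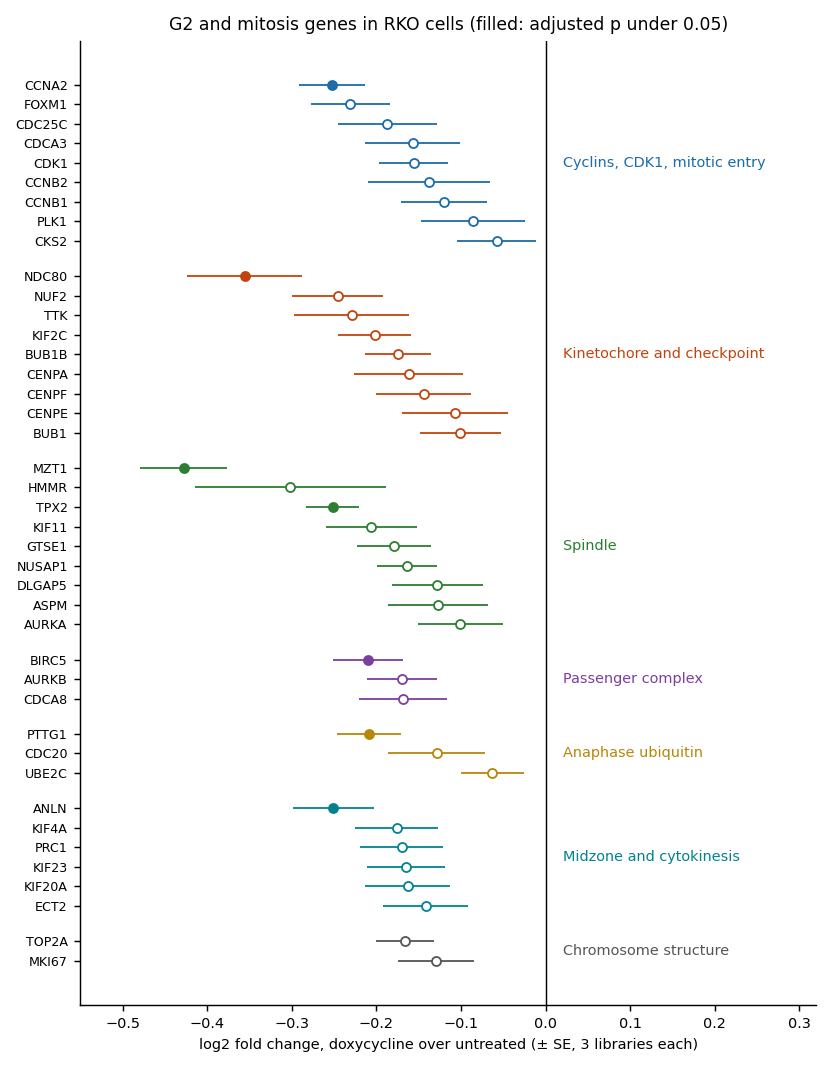
Log2 fold change of the 41 genes in RKO cells, doxycycline over untreated, with SE bars from the fit over all genes (3 libraries each), grouped by role. Filled points mark the 7 genes with an adjusted p under 0.05; every point lies left of 0, and MZT1 (-0.43) and NDC80 (-0.36) lie farthest out.

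Among the cyclins, their kinase and the factors of mitotic entry, 1 of 9 passed, against 0.757% of all genes called lower. The median was -0.16. CCNA2, cyclin A2, which acts from S phase into early mitosis, had 1030, 956 and 1015 signal with doxycycline, against 1213, 1171 and 1191 without. All doxycycline libraries lay below all untreated ones, and the gene fell to 83.9% of its untreated mean (-0.25 ± 0.04, adjusted p = 0.0301). FOXM1, a transcription factor that drives this gene set in G2, had 1829, 1964 and 1981 signal with doxycycline and 2355, 2295 and 2129 without. Its groups did not overlap either, but it lay just past the threshold (-0.23 ± 0.05, adjusted p = 0.0502). CDK1, the mitotic cyclin-dependent kinase, stood at -0.16 ± 0.04 (adjusted p = 0.0997).

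The B-type cyclins, the partners of CDK1 in mitosis, did not separate the groups. CCNB1 had 1046, 1033 and 1097 signal with doxycycline, against 1219, 1169 and 1068 without. CCNB2 had 566, 567 and 678 with doxycycline, against 623, 666 and 700 without. In each of them doxycycline 3 lay above 1 or more untreated libraries, and their adjusted p-values were 0.263 and 0.373. PLK1, a kinase of mitotic entry and spindle assembly, stood at -0.09 ± 0.06 and CKS2, a small subunit of the CDK complex, at -0.06 ± 0.05, the smallest change of the whole set. The phosphatase CDC25C, which activates CDK1, had 188, 196 and 214 signal with doxycycline, against 222, 230 and 228 without, and did not pass (adjusted p = 0.145). CDCA3, an entry factor that helps degrade the inhibitory kinase WEE1, stood at -0.16.

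At the kinetochore, where microtubules bind the centromere, 1 of 9 genes passed, against 0.757% of all genes called lower. The median was -0.17. NDC80, the subunit that gives its name to the complex that grips the microtubule, had 234, 197 and 222 signal with doxycycline, against 287, 266 and 283 without. The groups were apart, and the gene fell to 78.2% of its untreated mean (-0.36 ± 0.07, adjusted p = 0.0457), the second largest change of the set after MZT1. NUF2, which pairs with NDC80 in that complex, had 283, 264 and 291 signal with doxycycline, against 342, 316 and 336 without, and did not pass (-0.25 ± 0.05, adjusted p = 0.0617). The complex's other subunits, which are not in the set, stood at -0.18 (SPC24) and -0.25 (SPC25) and did not pass, so all 4 subunits were negative and 1 was called.

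Among the other kinetochore and checkpoint genes, KIF2C, a kinesin that removes wrong attachments, stood at -0.20 ± 0.04 (adjusted p = 0.0575). The checkpoint kinase genes did not pass. BUB1B (-0.17 ± 0.04) and TTK (-0.23 ± 0.07) had groups that did not overlap. BUB1 (-0.10 ± 0.05) had 1236, 1171 and 1330 signal with doxycycline, against 1320, 1376 and 1306 without. Doxycycline 3 lay inside the untreated range of BUB1. The centromeric histone gene CENPA stood at -0.16, the large kinetochore protein gene CENPF at -0.14 and the kinesin gene CENPE at -0.11, and none of the 3 passed.

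Spindle genes gave 2 calls among 9, against 0.757% of all genes called lower, and a median of -0.18. MZT1, a small protein of the gamma-tubulin ring that starts new microtubules, had 243, 236 and 243 signal with doxycycline, against 328, 307 and 337 without. This gap was far wider than the spread in either group: the gene fell to 74.2% of its untreated mean, 241 ± 4.24 against 324 ± 15.4 (SD, n = 3 each), with a log2 fold change of -0.43 ± 0.05 (adjusted p = 0.0152). TPX2, which activates Aurora A and nucleates microtubules around chromosomes, had 3111, 3158 and 3207 signal with doxycycline and 3739, 3778 and 3770 without. Its change was smaller (-0.25 ± 0.03, 84.0% of untreated) with the same adjusted p of 0.0152, and the SDs of its libraries were 48.0 signal with doxycycline and 20.9 without.

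AURKA, the kinase that TPX2 activates, had 747, 751 and 831 signal with doxycycline, against 862, 833 and 802 without, with overlapping groups (-0.10 ± 0.05, adjusted p = 0.348). NUSAP1, which bundles spindle microtubules, stood at -0.16 ± 0.04 (adjusted p = 0.0575), KIF11, the kinesin that pushes the poles apart, at -0.21 and GTSE1, which stabilises microtubules, at -0.18. HMMR, a spindle pole protein gene, had 47.1, 35.3 and 40.3 signal with doxycycline, against 53.0, 47.4 and 50.6 without. Its groups were apart by little and its error was the widest of the set (-0.30 ± 0.11). The groups of ASPM, a spindle pole gene, overlapped (-0.13), and those of DLGAP5, a spindle microtubule gene, met, because doxycycline 3 and untreated 1 hold the same value, 404.739 (-0.13).

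The chromosomal passenger complex corrects attachments and later moves to the midzone. In its 3 genes the groups did not overlap, against 13.3% of all genes separated and lower. Of the 3, 1 passed, against 0.757% of all genes called lower. BIRC5, survivin, had 694, 697 and 741 signal with doxycycline, against 835, 830 and 800 without (-0.21 ± 0.04, adjusted p = 0.0459). AURKB, the complex's kinase, stood at -0.17 ± 0.04 (adjusted p = 0.0776) and CDCA8, borealin, at -0.17 ± 0.05 (adjusted p = 0.140). INCENP, the complex's scaffold, which is not in the set, stood at -0.06 ± 0.05 and did not pass.

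Of the 3 genes around the ubiquitin ligase that starts anaphase, the one that passed was its substrate. Over all genes 0.757% were called lower. PTTG1, securin, which holds separase inactive until anaphase, had 725, 749 and 730 signal with doxycycline, against 873, 828 and 847 without. It fell to 86.5% of its untreated mean (-0.21 ± 0.04, adjusted p = 0.0397). CDC20, the ligase's activator, had 1311, 1295 and 1359 with doxycycline, against 1572, 1449 and 1323 without, so untreated 3 lay among the doxycycline libraries (-0.13 ± 0.06, adjusted p = 0.281). UBE2C, the ligase's E2 enzyme, stood at -0.06 ± 0.04, next to CKS2 at the small end of the set.

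All 6 midzone and cytokinesis genes had groups that did not overlap, against 13.3% of all genes separated and lower. Of the 6, 1 passed, against 0.757% of all genes called lower. ANLN, anillin, which links the contractile ring to the membrane, had 1591, 1438 and 1546 signal with doxycycline, against 1874, 1716 and 1854 without (-0.25 ± 0.05, adjusted p = 0.0459). The others lay in a narrow range: the kinesins KIF4A (-0.18), KIF23 (-0.17) and KIF20A (-0.16), the bundling protein PRC1 (-0.17) and ECT2, the exchange factor that activates RhoA at the cleavage site (-0.14). Of the 2 chromosome structure genes, TOP2A, which untangles sister chromatids, had 1764, 1695 and 1754 signal with doxycycline, against 1954, 1910 and 1985 without (-0.17 ± 0.03, adjusted p = 0.0523). MKI67, which coats mitotic chromosomes and encodes the Ki-67 antigen, had 6281, 6184 and 6639 with doxycycline, against 7292, 7065 and 6566 without. Doxycycline 3 lay above untreated 3 in MKI67, and the gene did not pass (-0.13 ± 0.05, adjusted p = 0.181).

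The same libraries were low or high in most members. Doxycycline 2 was the lowest of the 6 libraries in 25 members and doxycycline 1 in the other 16, while untreated 1 was the highest in 27. Among all genes tested, doxycycline 2 was lowest in 23.2%, doxycycline 1 in 13.6%, and untreated 1 was highest in 21.0%. Doxycycline 3 lay nearest to the untreated libraries: the mean deviation from each gene's own average, on the log2 scale, was -0.09, -0.14 and -0.04 in doxycycline 1, 2 and 3, against 0.13, 0.08 and 0.06 in untreated 1, 2 and 3. The groups overlapped in 12 members, in 10 of which doxycycline 3 lay above an untreated library, in 3 of which doxycycline 1 did and in 0 of which doxycycline 2 did. ZNF280C was lowest in doxycycline 3, the library in which the set was least reduced.

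**Figure D3:**
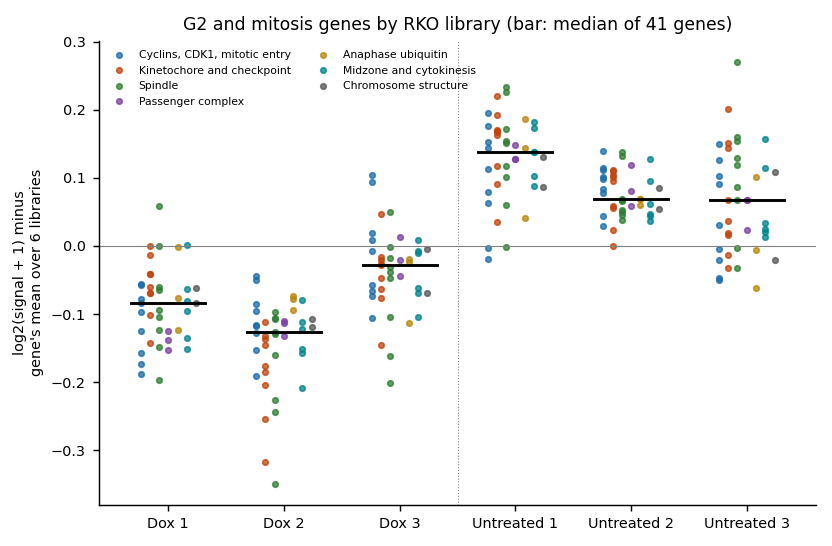
Each point is 1 of the 41 genes in 1 RKO library, as log2(signal + 1) minus that gene's mean over the 6 libraries, with colours for role groups and black bars for the median of the 41. The doxycycline libraries lie mostly below 0 and the untreated libraries mostly above it, with doxycycline 2 lowest and untreated 1 highest.

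A further 86 genes of cell division outside the set, also listed with earlier results of these data known, were measured in RKO cells. Of these, 79 were negative, against 55.1% of all genes, and the median was -0.13. In the test 10 fell (11.6%), against 0.757% of all genes, and 1 rose, against 0.385% of all genes. Those that fell were the mitotic kinase genes PBK (-0.29, adjusted p = 0.0243) and MASTL (-0.29), the phosphatase gene CDKN3 (-0.28), the kinetochore and checkpoint genes CENPK (-0.34), SKA2 (-0.24), ZWINT (-0.22) and MAD2L1 (-0.20), the cytokinesis gene RACGAP1 (-0.20), and the condensin genes NCAPG (-0.29) and NCAPD2 (-0.19). By part of the machinery, 4 of 23 other kinetochore genes, 3 of 12 entry genes, 2 of 8 condensin and lamin genes, 1 of 6 cytokinesis genes and 0 of 13 spindle genes fell. RACGAP1 forms a complex with KIF23 at the midzone, and it had 760, 761 and 742 signal with doxycycline, against 858, 861 and 887 without. None of these 11 genes was called in a fit that left out 1 library.

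Of 9 partners of MZT1 in the microtubule-starting ring, 0 fell and 1 rose, against 0.757% and 0.385% of all genes, and their median was -0.02. TUBG1, gamma-tubulin itself, had 728, 720 and 680 signal with doxycycline, against 734, 696 and 729 without. TUBGCP6, a large ring subunit, rose, with 558, 583 and 570 with doxycycline, against 469, 483 and 483 without (0.25 ± 0.04, adjusted p = 0.0316). MZT2A (-0.02) and MZT2B (0.01), which encode the other small ring proteins, had overlapping groups. TUBGCP6 was not called with the GC trend removed (0.18, adjusted p = 0.0726), and neither were 6 of the 10 genes named above that fell: RACGAP1 (adjusted p = 0.0509), CDKN3 (0.0543), NCAPG (0.0584), SKA2 (0.0911), MAD2L1 (0.103) and CENPK (0.109). Among 10 regulators of the whole gene set, 7 were negative and 0 were called. MYBL2, which encodes B-MYB, stood at -0.25 ± 0.06 without passing (adjusted p = 0.0791). CDKN1A, the p21 inhibitor that arrests cycling cells, had overlapping groups at 0.02 ± 0.05. CDKN1B was lower, with groups that did not overlap, and did not pass either (-0.24 ± 0.08, adjusted p = 0.145).

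In mouse colon the values are FPKM, which are per length, so levels can be set between genes. Zfp280c had 0.09, 0.09 and 0.22 FPKM in knock-out colon, against 2.48, 2.25 and 3.17 in wild-type colon, 5.06% of the wild-type mean. These are bulk tissue libraries, in which fewer dividing cells and less RNA per dividing cell cannot be told apart. Wild-type 2 stood apart from the other wild-type libraries in genes of position along the gut. The summed FPKM of 5 distal HOX genes was 8.93, 24.4 and 32.9 in knock-out 1, 2 and 3, against 359, 27.3 and 601 in wild-type 1, 2 and 3, and that of 3 proximal HOX genes was 38.0, 19.6 and 33.2, against 1.05, 33.4 and 0.58. Hoxd12 was listed at 0 in all knock-out libraries and in wild-type 2. Which segment of colon was taken is not given in the labels, so genotype and segment cannot be told apart with wild-type 1 and 3 as the only distal libraries.

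The members spanned a wide range of levels in colon. Pttg1 was highest, at 40.1 FPKM over the 6 libraries, followed by Cks2 (34.7), Mzt1 (20.1) and Plk1 (11.4). These 4 were the members with a mean of at least 10 FPKM. Of the rest, Ube2c (8.71), Top2a (7.42) and Ccna2 (7.09) were next, which differed by less than their spread over the libraries, and Aspm was lowest at 0.37. Of the 40, 31 reached the mean of 1 FPKM at which genes were tested. The other 9 were Cdc25c, Foxm1, Bub1, Ttk, Cenpe, Cenpf, Kif2c, Aspm and Gtse1, whose plain differences between the group means of log2(FPKM + 1) ran between 0.25 and 0.46, all higher in knock-out colon.

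In colon, 37 of the 40 genes were higher in the knock-out mean and 3 were lower, with a median plain difference of 0.36 on the log2(FPKM + 1) scale, but no member was called. Of the 31 tested, 0 passed in either direction, as did 0.0% of all 11366 genes (limma). The unadjusted p was under 0.05 in 1420 genes. Zfp280c itself was not called in that fit (log2 fold change -1.675 ± 0.14 SE, adjusted p = 0.123, limma). Its knock-out mean was 5.06% of the wild-type mean. The lack of calls therefore does not show that the members were unchanged. The tested members had a median log2 fold change of 0.45, against -0.02 over all genes tested, and 28 of them were positive, against 44.6% of all genes. The 1 member with an unadjusted p under 0.05 was Mzt1, which was lower in knock-out colon, as were 6.48% of all genes at that level. Of 71 other cell division genes tested in colon, 56 were positive, against 44.6% of all genes. Their median was 0.17, and 0 were called.

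Single libraries were low or high across most members. Wild-type 3 was the lowest of the 6 libraries in 37 of the 40 genes (92.5%), against 26.0% of all genes tested, and knock-out 3 was the highest in 28 (70.0%), against 13.8%. Wild-type 2 lay within the knock-out range in 31 (77.5%), against 50.9%. In 27 of the 40 (67.5%) wild-type 1 and wild-type 3 both lay below every knock-out library, against 23.5% of all genes. Among the knock-outs, knock-out 2 was lowest in 37 (92.5%), against 60.0% of all genes tested. Summed over the 40 genes, the level was 240, 189 and 259 FPKM in knock-out 1, 2 and 3, against 191, 248 and 149 in wild-type 1, 2 and 3, so the knock-out and wild-type ranges overlapped.

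**Figure D4:**
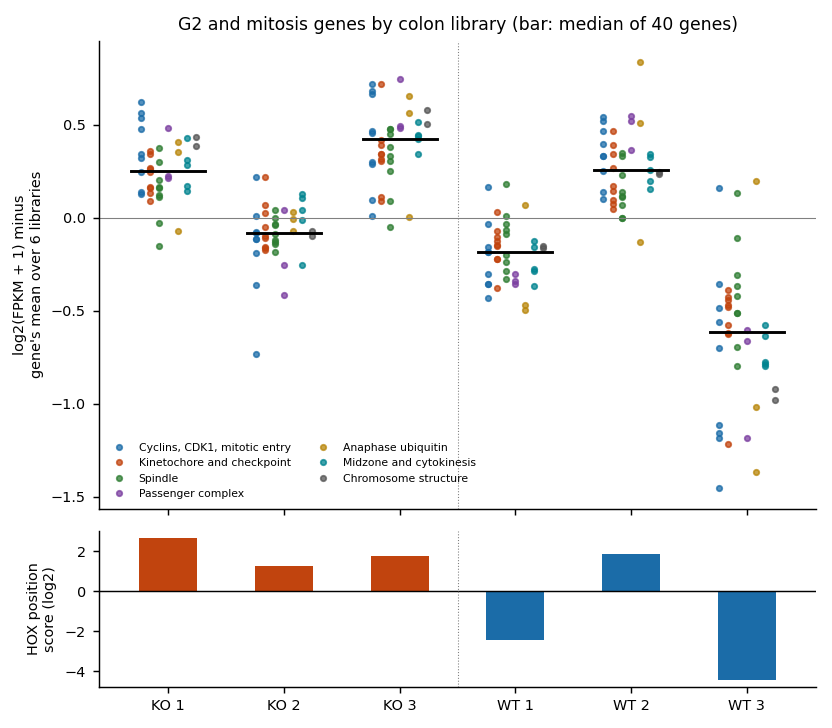
Upper panel, each point is 1 of the 40 genes in 1 colon library, as log2(FPKM + 1) minus that gene's mean over the 6 libraries, with black bars for the median. Lower panel, position score of each library (mean log2(FPKM + 1) of 3 proximal minus that of 5 distal HOX genes), 2.68, 1.28 and 1.78 in knock-out 1, 2 and 3 and -2.43, 1.88 and -4.42 in wild-type 1, 2 and 3. Wild-type 3 is lowest in both panels, and wild-type 2 is placed with the knock-outs in both.

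On the log2(FPKM + 1) scale, the cyclin genes had the largest differences between group means. That scale shrinks the differences of low genes. As a percentage of the wild-type mean, Aspm stood at 192%, Ccnb1 and Kif2c at 189%, Ccnb2 at 176% and Ccna2 at 168%. Ccna2 (Entrez gene 12428) had 9.49, 6.29 and 10.9 FPKM in knock-out colon, against 4.66, 9.53 and 1.65 in wild-type colon. Ccnb1 had 4.17, 3.33 and 4.14 in knock-out colon, against 2.01, 3.42 and 0.72 in wild-type colon, and Ccnb2 had 5.78, 3.35 and 6.27, against 2.4, 5.35 and 1.02. In all 3 cyclins wild-type 2 lay among the knock-outs and wild-type 1 and 3 below them. Their log2 fold changes were 0.84 ± 0.49, 0.78 ± 0.33 and 0.77 ± 0.42, with adjusted p-values of 0.459, 0.396 and 0.446.

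In the anaphase and passenger genes other than Pttg1, wild-type 3 was again the lowest library. Cdc20 had 4.49, 3.24 and 5.13 FPKM in knock-out colon, against 1.94, 4.89 and 1.05 in wild-type colon. Ube2c had 10.1, 7.59 and 12.6 in knock-out colon, against 5.24, 14.4 and 2.36 in wild-type colon, so its highest value was in wild-type 2. Birc5 had 8.77, 6.21 and 8.84 in knock-out colon, against 4.46, 9.04 and 2.08 in wild-type colon (0.68 ± 0.41, adjusted p = 0.476).

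Values of the spindle and kinetochore genes overlapped between the groups, apart from Mzt1. Tpx2 had 2.90, 2.30 and 3.45 FPKM in knock-out colon, against 2.52, 2.90 and 1.80 in wild-type colon (0.19 ± 0.17), and Ndc80 had 1.94, 1.05 and 1.44, against 1.13, 2.01 and 0.54 (0.19 ± 0.27). Cenpa had 3.58, 2.79 and 4.96, against 1.78, 3.99 and 0.56 (0.75 ± 0.42). Differences between role groups were not tested; by role, the medians of the tested members were 0.74 for the entry genes (7 of 9 tested), 0.29 for the kinetochore genes (4 of 9), 0.30 for the spindle genes (7 of 9), 0.36 for the passenger genes (3 of 3), 0.67 for the anaphase genes (3 of 3), 0.48 for the midzone genes (5 of 5) and 0.58 for the chromosome structure genes (2 of 2). Anln had 1.95, 1.17 and 1.78 in knock-out colon, against 0.81, 1.44 and 0.41 in wild-type colon, and Top2a had 9.40, 6.59 and 10.9, against 6.13, 8.45 and 3.05.

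Among the most abundant members, the order of the libraries was not the same in each. Pttg1 had 38.0, 38.0 and 40.1 FPKM in knock-out colon, against 41.9, 36.4 and 45.9 in wild-type colon, with its highest value in wild-type 3, where most members were lowest (-0.09 ± 0.10). Mzt1 (Entrez gene 76789) had 17.9, 18.3 and 19.3 in knock-out colon, against 22.9, 20.0 and 22.0 in wild-type colon, and was the only tested member in which the groups did not overlap (-0.21 ± 0.08, adjusted p = 0.396). That is 3.23% of the tested members, against 9.79% of all genes that were separated and lower. Of 7 partners of Mzt1 in the microtubule-starting ring tested in colon, 5 were negative, 2 were positive and 0 were called. All genes tested were positive in 44.6%. The partners' median was -0.11, and Tubgcp4 (-0.43 ± 0.15) was separated and lower. Plk1 had 12.2, 6.24 and 11.9, against 9.57, 16.3 and 12.4, with the lowest log2 fold change of the set (-0.33 ± 0.28). Cks2 had 37.7, 32.5 and 34.6, against 38.6, 38.0 and 26.7, with its highest and lowest values both in wild-type colon (0.04 ± 0.16).

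Markers of several cell types moved with these libraries. Summed FPKM of 6 epithelial markers was 14670, 14620 and 11560 in knock-out 1, 2 and 3, against 7182, 13320 and 7240 in wild-type 1, 2 and 3, most of it from Krt8 and Car1. The markers did not move together. Car1 had 7523, 6785 and 4496, against 945, 5857 and 1584, and Krt20, Vil1 and Krt8 also had higher knock-out means. Epcam was nearly level, at 984, 1061 and 1029, against 1017, 1047 and 917. Cdh1 had a lower knock-out mean, with 262, 288 and 262, against 319, 263 and 313. Summed FPKM of 6 crypt base markers was 21.1, 16.3 and 23.2 in knock-out colon, against 22.2, 23.7 and 24.3 in wild-type colon. Of these, Ascl2 had 0.61, 0.45 and 1.58, against 1.82, 1.87 and 2.35. It was separated and lower, as were 9.79% of all genes tested, and did not pass (adjusted p = 0.396, limma). Axin2, Smoc2 and Rgmb also had lower knock-out means, and Lgr5 and Ephb2 had higher ones. T cell markers (6 genes) summed to 20.6, 12.6 and 16.8, against 10.5, 14.5 and 5.48, and adipocyte markers (5 genes) to 62.6, 43.0 and 81.3, against 8.77, 31.6 and 6.21, both lowest in wild-type 3, as were most members. B cell follicle markers (10 genes) summed to 6.12, 4.39 and 15.6, against 32.1, 7.10 and 16.7, plasma cell markers (4 genes) to 89.7, 51.8 and 85.0, against 217, 78.0 and 117, and smooth muscle markers (5 genes) to 419, 486 and 308, against 203, 398 and 236. Among the T cell markers Cd4 had a lower knock-out mean, unlike the rest. In the B cell follicle list S1pr2 and Mef2b had higher knock-out means, unlike the rest. No marker of these lists was at 0 in all libraries of a group. The part of these cell types in the values of the members was not tested.

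The result in colon depended on wild-type 2. Without it, 9 of the 31 tested members were called higher in knock-out colon, against 9.21% of all genes called higher and 7.19% called lower in that fit, and the members' median log2 fold change was 0.67. The 9 were Ccna2 (1.32 ± 0.35, adjusted p = 0.0464), Ccnb1 (1.10), Ccnb2 (1.19), Cenpa (1.17), Birc5 (1.11), Cdc20 (1.09), Ube2c (1.25), Prc1 (0.77) and Kif23 (0.85). That fit sets 3 proximal-type knock-out libraries against 2 distal-type wild-type libraries. Without any other single library 0 members were called, and 0 of all genes were. With the position score as a covariate the median was -0.12, 26 of the 31 were negative and 0 were called (limma; the unadjusted p was under 0.05 in 426 of all genes), and in that fit wild-type 2 is the only wild-type library at the position of the knock-outs. The members that were negative with all 6 libraries had these values: Plk1 -0.15 without wild-type 2 and -0.68 with the covariate, Mzt1 -0.26 and -0.12, and Pttg1 -0.18 and 0.09. The sign of Mzt1 without wild-type 2 was fixed by its groups, which do not overlap.

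**Figure D5:**
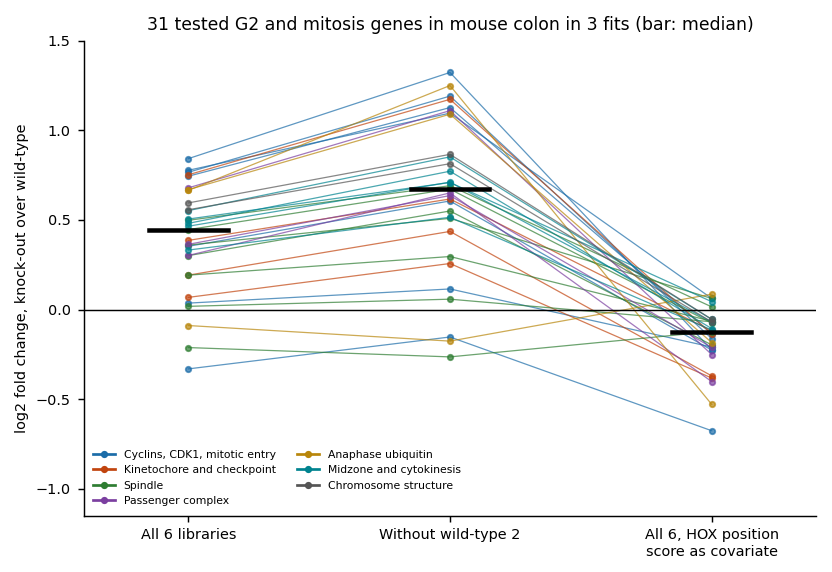
Log2 fold change of the 31 tested G2 and mitosis genes in mouse colon, knock-out over wild-type, in 3 fits: all 6 libraries, without wild-type 2, and with the HOX position score as a covariate. Lines join the same gene, colours mark role groups and black bars the medians, which are 0.45, 0.67 and -0.12.

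Set side by side, the 40 genes measured in both tables were negative in RKO cells in 40 cases and in colon in 3, which were Mzt1, Plk1 and Pttg1. Of the 7 genes that fell in RKO cells, 5 were positive in colon (Ccna2, 0.84, Anln, 0.51, Birc5, 0.68, Ndc80, 0.19, and Tpx2, 0.19) and 2 were negative (Mzt1, -0.21, and Pttg1, -0.09), and none of the 7 passed in colon. With the position score as a covariate, Ccna2, Birc5, Ndc80 and Tpx2 were negative too (-0.23, -0.25, -0.37 and -0.07), so these directions depend on the fit. The knock-out acts in the whole animal and the shRNA for 72 h in 1 cell line, and the 2 tables were normalized separately, so the sizes of the differences were not compared between them.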

How the data were processed

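Polyadenylated RNA was sequenced in 12 libraries, and the authors deposited 1 table per setting. Bowtie2, HISAT, HTSeq, edgeR and hg19 are named, per the submitters' processing notes, with no versions or roles; the mouse build is not given in the sources used here. The RKO table is named as FPKM after ComBat, but each column sums to between 9050161 and 9195211, far above FPKM, so the deposited values are treated as signal after the authors' batch adjustment, of unknown relation to gene length. The test planned for FPKM was kept. Per the file headers, the mouse values are FPKM. Read depth is unknown for both, so no counting intervals are given, and 0 columns of samples were left unused.

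The tables were fitted separately. After adding 1 and taking log2, genes whose mean over the 6 libraries reached 1 entered the fit (15590 for RKO cells, 11366 for colon). The fit was limma's moderated test, which let the variance follow the mean level (limma 3.58.1, R 4.3.3). Calls were made at an adjusted p under 0.05, by Benjamini-Hochberg across every gene in the fit. Levels carry SD and log2 fold changes SE. Fold changes on this scale understate those of low genes. The fit was tested on simulated data with known changes.

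The members, their role groups and the lists of other cell division genes and markers were chosen with earlier results of these data known. Of 88 other cell division genes listed, 86 were used in each table. Named genes in RKO were all called members, those with the lowest p until 3 per role group, and the smallest change in groups of 6 or more; in colon they were the counterparts of called members, the lowest p per role group and the 2 highest and 2 lowest changes. Further members were named after their values were seen, to account for the whole set, as were INCENP, SPC24, SPC25, TUBG1, MZT2A, MZT2B, CDKN1A and CDKN1B.

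Transcript GC came from GENCODE by symbol (12539 genes) or synonym (579), 84.1% of RKO genes, and all 41 members. Its trend was removed per library by lowess (span 0.3). Promoter windows are RefSeq's, on GRCh38.p14, matched by symbol; no other coordinates are used. Alternatives were other pseudocounts and minimum means, 3 rescalings, robust variance, 2 kinds of block, the GC correction, the position score and leaving out each library. The GC-matched genes without the correction were added after the data were seen.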

Additional observations from a re-analysis of the deposited data

How the results depend on the processing

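All 41 genes were negative in RKO cells under each of the 18 alternatives run, with a median between -0.20 and -0.15. Under other pseudocounts, minimum means, robust variance and the blocks the signs could hardly change, so those alternatives say little about stability. The number called lower (7) was not stable. It was 4 with all libraries scaled to equal sums, 3 with quantile normalization, 4 with median centring, and 0 to 2 when 1 library was left out. Other pseudocounts, minimum means, robust variance and the GC settings gave 7 to 9. MZT1 and TPX2 each passed in 12 of the 18 alternatives, CCNA2 in 10, PTTG1 in 8, NDC80 and BIRC5 in 7 and ANLN in 6. Over all genes, 118 were called lower and 60 higher with the values as deposited, 67 and 59 with equal sums, 62 and 69 with quantile normalization, and 59 and 72 with median centring. No scaling moved the median of all genes by as much as 0.1.

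Deviations of same-numbered libraries from their group means correlated at 0.08, -0.53 and 0.06 in RKO and at -0.45, -0.14 and 0.15 in colon. Not every library correlated best with its own number. The RKO file is named as already adjusted for batch, and group means of 3 libraries tie the correlations to each other. The correlations therefore cannot decide whether the numbers mark pairs. With the replicate number as a block, 0 RKO members and 0 colon members were called, as were 1 of all RKO genes and 0 of all colon genes. With the block of libraries that share equal values, 0 RKO members and 0 of all RKO genes were called. Blocks and fits without 1 library leave fewer residual degrees of freedom. Signs kept under a block, or without 1 library in genes whose groups do not overlap, say nothing about stability.

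In colon, 0 to 9 members were called higher when 1 library was left out. With the position score as a covariate the members' median was -0.12, and these named genes changed sign: Birc5 (-0.25), Ccna2 (-0.23), Cdc20 (-0.18), Cenpa (-0.14), Ndc80 (-0.37), Pttg1 (0.086), Top2a (-0.054) and Tpx2 (-0.065). Ndc80 ranged from -0.048 to 0.44 when 1 library was left out, and was negative without wild-type 3. Apart from the construction of the fits, the cause of these differences was not tested.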
